A study of Mus musculus with 6 samples.

Results

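Mouse bone marrow cells in which Rad21 was targeted by 1 of 2 different short hairpin RNAs were compared with each other: 2 arrays of cells carrying Rad21 shRNA1 against 2 arrays of cells carrying Rad21 shRNA2, out of 6 arrays in the series. The comparison was chosen by the sample titles and covered all 12393 genes with a named probe set. All cells came from bone marrow of C57/BL6 animals aged 6 to 8 weeks, from which mature lineages had been removed. They were exposed for 24 h to lentivirus carrying Rad21 shRNA1, Rad21 shRNA2 or, in the control arrays, an empty vector, kept alive through puromycin at 1 µg/mL, and sorted as live cells. They were plated at 10000 cells per mL in methylcellulose with cytokines that the labels do not name, and RNA was taken on day 7, when the first plating ended. Controls therefore share the vector, the drug and the culture, and no group was left without virus. The 2 empty-vector arrays took no part in the test and are quoted for the level without a hairpin. The labels do not state that arrays of a group came from separate animals or cultures, so the p-values reflect only how much these arrays vary, which could be technical variation, and the number of arrays limits the precision.

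RAD21 is the subunit that closes the cohesin ring, the complex that holds sister chromatids together and shapes chromatin loops. A short hairpin RNA is cut by the cell into a small RNA that directs Argonaute to a matching mRNA. Hairpins against the same mRNA share that target and need not share any other. In methylcellulose with myeloid cytokines, progenitors divide and mature into granulocytes, monocytes and macrophages. The question this comparison addresses is how far cells carrying either hairpin had the same RNA profile.

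Rad21 itself stood at about the same level with either hairpin. On the brightest of its 3 probe sets the log2 intensity was 9.63 and 9.14 on the shRNA1 arrays and 9.50 and 9.11 on the shRNA2 arrays, against 11.14 and 10.49 with empty vector. The values of the hairpins overlapped, and all 4 lay below both empty-vector arrays. The difference, shRNA1 minus shRNA2 throughout, was 0.077 ± 0.22 (standard error of the limma fit, n = 2 and 2 arrays; limma adjusted p = 0.954). Its 95% confidence interval, from the fit over all probe sets, ran from -0.49 to 0.64, so a gap in knockdown of up to that size would not have been resolved. On the next brightest the difference was 0.13 ± 0.20, and on the dimmest one it was 0.13 ± 0.29. Replicate 1 was above replicate 2 within either hairpin on all 3 probe sets. The sign of the Rad21 difference followed the arrays used, at -0.17 without shRNA1 replicate 1 and -0.12 without shRNA2 replicate 2.

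**Figure D1:**
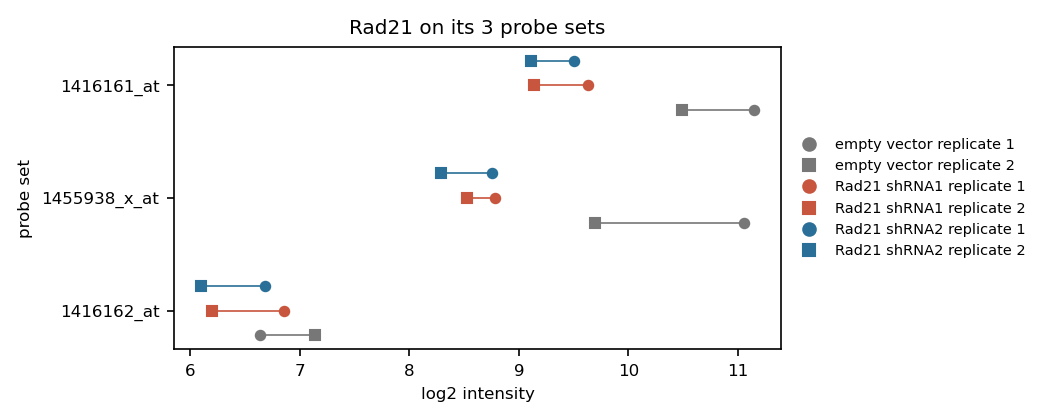
Log2 intensity (x axis) of Rad21 on each of its 3 probe sets (y axis), with 1 point per array and a line joining the 2 arrays of a group. On the 2 brighter probe sets the 4 shRNA arrays lie below both empty-vector arrays, and the points of shRNA1 and shRNA2 overlap on all 3.

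No gene of the cohesin list had a call between the hairpins. The list had 14 measured subunits and regulators, Rad21 included. Of these, 11 had a difference below 0, 6 had both shRNA1 arrays below both shRNA2 arrays, and the median was -0.19. Over all genes the median difference was -0.021, and 23.9% had both shRNA1 arrays below both shRNA2 arrays. Smc3, a core ring subunit, differed by -0.52 ± 0.14 (limma adjusted p = 0.237) and Stag1, an alternative subunit of the complex, by -0.54 ± 0.20 (0.361).

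Median intensity was 102.1 to 104.9 on the shRNA arrays and 100.2 and 104.6 with empty vector. The values had been normalized by RMA, so near-equal medians do not show that the arrays were alike. The added poly-A control RNAs averaged 8.58 and 8.31 log2 on the shRNA replicates numbered 1 and 7.33 and 7.11 on those numbered 2. With empty vector they averaged 10.47 and 7.51. The 3' minus 5' difference of the Gapdh control probe sets lay between -0.078 and -0.056 on the shRNA arrays and was 2.42 on empty-vector replicate 1 and 0.017 on replicate 2, so 1 control array stood apart in this sign of RNA quality. Its part in the empty-vector levels quoted was not tested.

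Over all genes, arrays of different hairpins lay further apart than replicates, by little for those numbered 1 and by more for the other pairs. The root mean square distance over genes was 0.31 between the replicates numbered 1 of shRNA1 and shRNA2 and 0.37 between those numbered 2, and 0.36 and 0.45 between arrays of unlike number. It was 0.30 between the shRNA1 arrays and 0.28 between the shRNA2 arrays. Differences over 2-fold were nearly all in one direction: 189 genes (1.53%) were that much higher with shRNA1 and 21 (0.169%) with shRNA2.

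In the test over all genes, 44 of 12393 (0.355%) passed an adjusted p of 0.05 in limma, and all 44 were higher with shRNA1. No gene (0 of 12393, 0%) passed in the other direction, where 699 had an unadjusted p under 0.05 by limma, against 855 (6.9%) higher with shRNA1. The 44 differed by 1.04 to 3.98 on the log2 scale, or 2.05-fold to 15.7-fold, with a median of 1.63. Of the 44, 6 belong to the list of 41 measured monocyte and macrophage genes and 32 to none of the 36 lists compared. The count depended on the settings. With replicate number as a block it was 999, 334 of them higher with shRNA2 and 180 in lists, and 0 with the block and all 6 arrays. No label says that a number marks a shared culture or day, and the calls below are those of the fit without a block. The count was 126 with an intensity trend in limma, 8 of them higher with shRNA2, and 72 with robust eBayes, 1 of them higher with shRNA2. It was 29 with a gene's probe sets averaged. It was 0 when the empty-vector arrays joined the fit, 1 after quantile normalization, 1 with 16 added before the logarithm, 3 with the dimmest 25% of genes left out and 0 with the dimmer 50% left out. It was 24 without shRNA1 replicate 1, 0 without shRNA1 replicate 2, 13 without shRNA2 replicate 1 and 54 without shRNA2 replicate 2.

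A second look came from probe sets that the choice of 1 per gene had left aside. Of the 44 genes, 23 had other probe sets, 51 in all, read on the same arrays. Their median difference was 1.27, 48 of 51 were positive, and on 45 of 51 both shRNA1 arrays lay above both shRNA2 arrays. Among all 7987 probe sets left aside 44.7% were positive and 17.4% had both shRNA1 arrays above. The 44 were chosen on the same RNA and arrays, so these shares compare probe sets and are no independent repeat of the difference. Tested as 20380 single probe sets, 5 passed in limma (0.0245%), all higher with shRNA1, and Car4 was the 1 gene with several probe sets that passed on every one. Of the 51, 18 differed by less than 2-fold, on 11 genes. The 3 below 0 were of Speg (-0.16), Timp2 (-0.12) and Ms4a6d (-0.057).

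**Figure D2:**
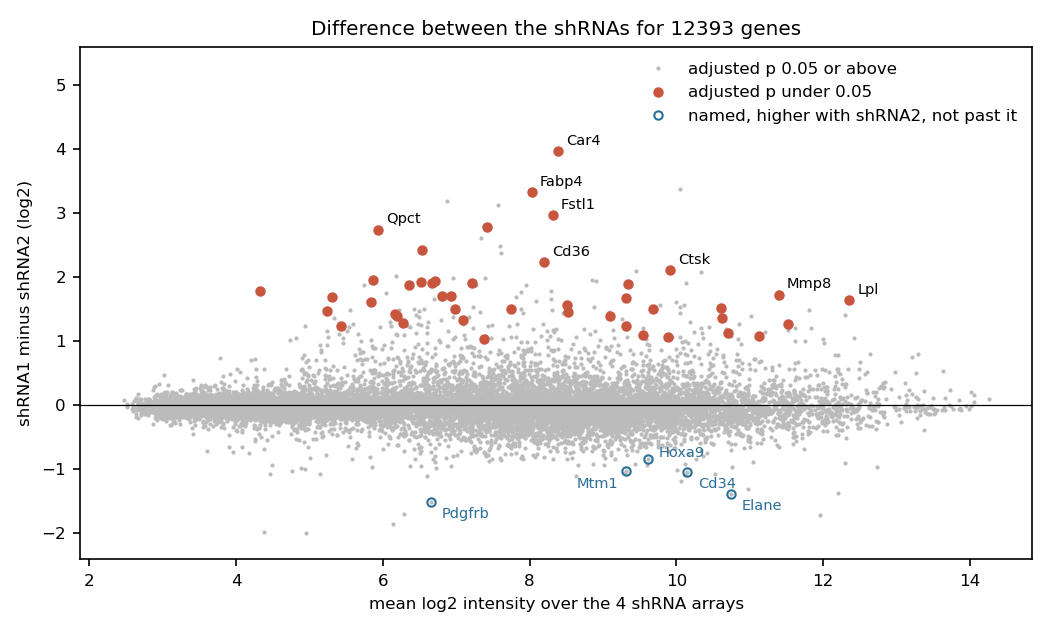
Difference between the hairpins (shRNA1 minus shRNA2, log2, y axis) against the mean log2 intensity over the 4 shRNA arrays (x axis) for 12393 genes, with 1 point per gene. The 44 filled points passed an adjusted p of 0.05 and all lie above 0, up to 3.98 for Car4, while the open circles mark named genes below 0 that did not pass.

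Among the lists, monocyte and macrophage genes held the most calls, with 6. CD36 takes up fatty acids and oxidised lipoproteins, FABP4 carries fatty acids inside the cell, lipoprotein lipase (Lpl) frees them from lipoproteins, and MSR1 and COLEC12 are scavenger receptors. Cd36 had log2 intensities of 9.22 and 9.41 with shRNA1 and 6.94 and 7.21 with shRNA2, a difference of 2.24 ± 0.15 (limma adjusted p = 0.0363). Both shRNA1 arrays were far above both shRNA2 arrays, and the empty-vector arrays were higher still, at 10.53 and 11.73. The other bright Cd36 probe set gave 2.21 and the dim one 1.27. Fabp4 stood at 9.38 and 10.02 with shRNA1, at 6.21 and 6.52 with shRNA2 and at 10.42 and 10.82 with empty vector, and differed by 3.34 ± 0.24, or 10.1-fold (limma adjusted p = 0.0363). Its arrays separated widely, in the same order of groups as those of Cd36. Of the other Fabp4 probe sets, the bright one gave 3.35 and the dim ones 0.59 and 0.70. Lpl, named only because it passed, had 13.02 and 13.34 with shRNA1, 11.42 and 11.64 with shRNA2 and 12.91 and 13.19 with empty vector. Here shRNA1 lay at the empty-vector level and shRNA2 below it, with a difference of 1.65 ± 0.16 (limma adjusted p = 0.0403).

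Scavenger and efferocytosis receptors followed. Msr1 had 9.96 and 10.34 with shRNA1, close to the 9.97 and 10.31 of empty vector, and 8.46 and 8.50 with shRNA2, a difference of 1.68 ± 0.16 (limma adjusted p = 0.0397). Its further 3 probe sets gave 1.30 to 1.92. Colec12 stood at 8.57 and 9.07 with shRNA1, 5.74 and 6.32 with shRNA2 and 8.18 and 7.85 with empty vector, and differed by 2.79 ± 0.26 (limma adjusted p = 0.0397). In this gene the shRNA1 arrays were the highest of all. Mertk, a receptor tyrosine kinase for apoptotic cells, had 7.40 and 7.86 with shRNA1, 5.55 and 5.89 with shRNA2 and 8.28 and 9.76 with empty vector (1.91 ± 0.21, limma adjusted p = 0.0499). Ctsk, the lysosomal protease cathepsin K, had 10.71 and 11.25 with shRNA1, 8.92 and 8.80 with shRNA2 and 10.36 and 12.05 with empty vector, where the control arrays spanned both shRNA1 values (2.12 ± 0.20, limma adjusted p = 0.0397).

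Counted over its list, the monocyte and macrophage group had 6 of 41 measured members past the threshold, all higher with shRNA1 and all named above (Colec12 is not in the list), beside 0.355% of all genes. On 29 of 41 both shRNA1 arrays lay above both shRNA2 arrays (17.7% of all genes), and the median difference was 0.56 beside -0.021 over all genes. The median lay between 0.58 and 0.70 with any 1 array left out, and was 0.79 and 1.04 with the dimmest 25% and the dimmer 50% of genes left out. Members without a call, named after their values were seen, were led by Arg1 (arginase 1, 3.37), Mrc1 (CD206, a mannose receptor, 2.08) and Ccr2 (a monocyte chemokine receptor, 1.96), with Cd68 at 1.17 and Adgre1 (F4/80) at 1.15. Complement C1qa (0.036), C1qb (0.42) and C1qc (0.33) and the iron-recycling factor Spic (0.016) had small differences. Plac8, a gene of monocyte progenitors, differed by -0.89, Cx3cr1 by -0.45 and Fcgr1 by -0.33. Of lysosomal genes, which overlap with this list, 1 of 27 passed, Ctsk, 24 of 27 had both shRNA1 arrays above both shRNA2 arrays and none the reverse, and the median was 0.35. Cathepsin L (Ctsl) differed by 1.49 and cathepsin H (Ctsh) by 1.04, without a call.

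A smaller set of cell type markers was summed on the linear scale. Of 8 monocyte and macrophage markers 6 were measured, and 0 passed by limma. Among the 6, 5 were apart upwards and 1 downwards, beside 17.7% and 23.9% of all genes. Their summed intensity was 15669 and 17084 with shRNA1, 8707 and 8288 with shRNA2 and 7706 and 18790 with empty vector. In bulk RNA, fewer cells of a type and less RNA of that type per cell cannot be told apart. The 10 neutrophil markers summed to 80843 and 63887 with shRNA1, 88463 and 85595 with shRNA2 and 41714 and 27173 with empty vector. Of these, 1 was apart upwards and 4 downwards. All 10 had a mean log2 intensity above 7 over the shRNA arrays. Mast cell and basophil markers gave 16554 and 21188 against 17196 and 19657, megakaryocyte markers 5207 and 9205 against 5782 and 6199, and erythroid markers 340 and 469 against 329 and 350, so these groups overlapped. Stromal and endothelial markers gave 193 and 169 against 287 and 282, but of these 5 markers 1 was apart upwards and 1, Pdgfrb, downwards. Pdgfrb had log2 intensities of 6.34 and 5.48 with shRNA1 and 7.48 and 7.34 with shRNA2. Its other, dimmer probe set differed by only -0.27, so this sum does not show a shift shared by the markers. None of the measured B cell, T cell or stromal and endothelial markers (3, 3 and 5) had a mean above 7. The part of these shifts in the gene differences was not tested.

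To show the regulatory sequence next to genes that moved together, the 250 bases before the start of 3 of the 44 genes follow, 5′ to 3′ on the gene's strand, from RefSeq (build GRCm38.p6). They are Cd36 (chr5:17835897-17836146, minus strand), Ctsk (chr3:95498960-95499209, plus strand) and the most upstream of 3 starts of Il1rn (chr2:24336610-24336859, plus strand). Capitals mark matches, on either strand, to GAGGAAG (chosen after the values were seen, as were the next 2: the core bound by PU.1, the master factor of macrophages), to TGANTCA (AP-1) or to AGGTCA (the nuclear receptor half-site).

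Cd36: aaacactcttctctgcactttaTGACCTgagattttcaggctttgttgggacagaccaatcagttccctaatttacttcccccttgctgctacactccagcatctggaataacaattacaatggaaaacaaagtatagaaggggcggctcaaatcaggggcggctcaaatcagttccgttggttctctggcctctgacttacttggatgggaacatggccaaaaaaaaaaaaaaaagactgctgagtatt
Ctsk: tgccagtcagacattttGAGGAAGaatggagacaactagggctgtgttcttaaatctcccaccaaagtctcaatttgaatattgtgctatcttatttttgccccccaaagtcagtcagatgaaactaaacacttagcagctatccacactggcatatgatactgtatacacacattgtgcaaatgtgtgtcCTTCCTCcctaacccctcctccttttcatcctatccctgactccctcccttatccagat
Il1rn: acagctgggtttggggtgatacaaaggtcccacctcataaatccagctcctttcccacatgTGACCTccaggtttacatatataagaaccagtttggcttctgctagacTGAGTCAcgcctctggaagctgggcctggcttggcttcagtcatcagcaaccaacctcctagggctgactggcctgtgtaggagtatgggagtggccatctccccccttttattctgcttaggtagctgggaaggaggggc

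Ctsk held GAGGAAG on both strands, Cd36 held AGGTCA on the opposite strand, and Il1rn held TGANTCA and, on the opposite strand, AGGTCA. The other starts of Il1rn held none of these motifs. The 3 printed genes are not typical of the 44, since others with a promoter, such as Car4, Fstl1 and Irf8, held no match. Of the 44 genes, 31 had a promoter in this table. Within 250 bases of any of their starts, 4 of 31 genes (12.9%) held GAGGAAG, beside 12.9% of the 9887 compared genes with a promoter, 5 (16.1%) held TGANTCA, beside 6.84%, and 6 (19.4%) held AGGTCA, beside 14.1%. The core of the interferon-stimulated response element was in 0 of 31, beside 3.35%. Over all 27025 genes with a promoter of this length the shares, in the same order, were 12%, 7.82%, 15.8% and 3.46%. Counted per promoter instead, they were 8.7%, 13%, 15.2% and 0% of the 46 promoters of the called genes. Over all 32851 promoters they were 10.6%, 6.75%, 14% and 2.98%. These are matches of letters only, and the motifs do not overlap one another in the sequences printed.

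Outside the macrophage list, the largest difference of all was in Car4, a membrane-anchored carbonic anhydrase. It had 10.13 and 10.62 with shRNA1, 6.59 and 6.21 with shRNA2 and 8.77 and 10.55 with empty vector, a difference of 3.98 ± 0.22, or 15.7-fold (limma adjusted p = 0.0259). Its second probe set gave 3.88. Fstl1, a secreted follistatin-like glycoprotein, had 9.42 and 10.18 with shRNA1, 6.94 and 6.72 with shRNA2 and 10.01 and 11.62 with empty vector (2.97 ± 0.26, limma adjusted p = 0.0397). Qpct, which forms N-terminal pyroglutamate, had the smallest adjusted p, 0.0103 by limma, at 7.29 and 7.31 with shRNA1 and 4.54 and 4.57 with shRNA2, although the empty-vector arrays lay at 6.09 and 8.54. Qpct kept its call in 11 of 14 alternative settings that tested it, the most of the 44, whose fewest was 3.

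The rest of the 12 largest showed the same separation. Snhg11, a small nucleolar RNA host gene, had 7.42 and 8.08 with shRNA1 and 5.23 and 5.42 with shRNA2, and here shRNA2 lay at the empty-vector level of 5.21 and 6.20 (2.42 ± 0.23). Ifi204, an interferon-inducible DNA-sensing family member, had 6.79 and 6.91 against 4.93 and 4.86, below an empty-vector level of 7.53 and 8.14 (1.95 ± 0.12). Nnmt, nicotinamide N-methyltransferase, had 7.51 and 7.84 against 5.55 and 5.92 (1.95 ± 0.19). The matrix metalloproteinase Mmp19 had 7.37 and 7.61 against 5.61 and 5.52, below an empty-vector level of 8.38 and 9.0 (1.92 ± 0.13). Their limma adjusted p-values lay between 0.0294 and 0.0397.

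**Figure D3:**
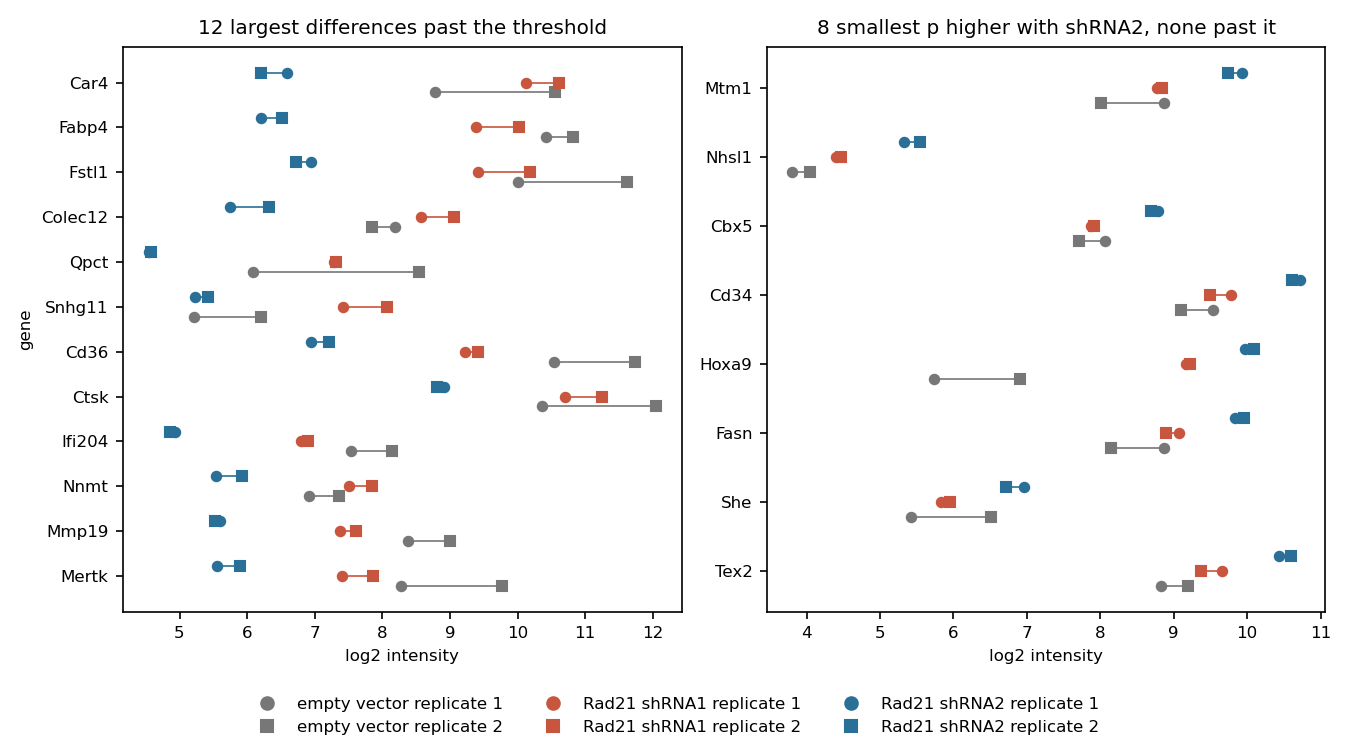
Log2 intensity (x axis) on each array for the 12 genes with the largest differences past the threshold (left) and the 8 genes of smallest p that were higher with shRNA2, none of which passed (right), 1 point per array with a line joining the arrays of a group. On the left both shRNA1 points lie above both shRNA2 points for each gene, as the rule required, with gaps of 1.91 to 3.98 between group means, and on the right the gaps between group means are -1.03 to -0.84.

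Among the 44, the genes outside any list were named only because they passed, after their values were seen. Those for secreted proteins included Timp2 (a metalloproteinase inhibitor, 1.47), C1ra (a complement protease, 1.43) and F7 (coagulation factor VII, 1.53). Others were Tgm2 (transglutaminase, 1.07), Dab2 (a clathrin adaptor, 1.41), Lrpap1 (the chaperone of LDL receptor family members, 1.27), Cav1 (caveolin, 1.70) and Marcks (1.57). Further ones were Plpp3 (1.5), Sphk1 (sphingosine kinase, 1.34), Gstm2 (1.71), Abhd3 (1.78) and the cationic amino acid transporter Slc7a2 (1.89). In all, the mean of the empty-vector arrays lay above the shRNA2 mean in 43 of the 44 genes and above the shRNA1 mean in 28, beside 51.6% and 55.2% of all genes. In those 28 the shRNA1 mean lay between the other means. The share over all genes was 50.1%, but it counts either order of the empty-vector and shRNA2 means. In the 44 only 1 order could occur, so that share is not a like baseline. These counts share their arrays with the choice of the 44 and describe it.

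Myeloid transcription factors had 2 of 24 members past the threshold, both higher with shRNA1, beside 0.355% of all genes, and a median of 0.36. The list was mixed, with 17 members above 0 and 7 below, down to -0.93. At an unadjusted p under 0.05, 10 were higher with shRNA1 and 2 with shRNA2 (6.9% and 5.64% of all genes). Irf8, which drives monocyte and dendritic cell fate, had 8.44 and 8.55 with shRNA1, 7.05 and 6.93 with shRNA2 and 7.36 and 8.04 with empty vector, so that shRNA1 was highest (1.51 ± 0.12, limma adjusted p = 0.0363). Its other probe set gave 1.30. Id2, which blocks E proteins, had 11.62 and 11.71 with shRNA1, 10.63 and 10.53 with shRNA2 and 12.50 and 12.53 with empty vector, with shRNA1 in the middle (1.09 ± 0.12, limma adjusted p = 0.0499). Irf8 was also the 1 call among 21 dendritic cell and MHC class II genes, beside 0.355% of all genes. The median of that list, 0.23, was 0.082 without shRNA1 replicate 1 and 0.45 without shRNA1 replicate 2. Egr2, an early growth response factor of macrophages, differed by 1.27 ± 0.17 (limma adjusted p = 0.0697) and Cebpb by 1.03 ± 0.14 (0.0647).

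Inflammatory genes had 2 calls of 31, beside 0.355% of all genes, and the median was 0.53, which was 0.32 without shRNA1 replicate 1 and 0.80 over the brighter 50% of genes alone. Il1b, the cytokine interleukin 1 beta, had 10.36 and 10.49 with shRNA1, 8.81 and 9.05 with shRNA2 and 9.41 and 9.61 with empty vector (1.5 ± 0.14, limma adjusted p = 0.0397). Il1rn, the antagonist of its receptor, had 9.86 and 10.002, 8.74 and 8.65, and 8.64 and 10.07 in the same order (1.24 ± 0.12, limma adjusted p = 0.0403). The shRNA1 arrays of Il1b were thus above both other groups, and those of Il1rn lay within the empty-vector range. Both Ccl2 (0.82) and Ccl7 (0.87), chemokines for monocytes, had no call.

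Neutrophil genes were followed by stage. Primary granule genes are made by promyelocytes, the early granulocyte precursors. Of 13 measured, none passed the threshold by limma, and the median was -0.61. In 10 the difference was below 0, and 8 of those had an unadjusted p under 0.05 (5.64% of all genes were higher with shRNA2 at that level). The other 3 went the opposite way, by up to 0.57, and 1 of them reached that level (6.9% of all genes). Elane, neutrophil elastase, had 10.31 and 9.81 with shRNA1 and 11.20 and 11.68 with shRNA2, against 5.76 and 5.78 with empty vector (-1.38 ± 0.24, limma adjusted p = 0.111). Both hairpin groups were far above the controls, and shRNA2 was the higher. Cst7, cystatin F, differed by -0.61 ± 0.12 (limma adjusted p = 0.131), Mpo, myeloperoxidase, by -1.71, Prtn3, proteinase 3, by -1.37 and Ms4a3 by -1.31. The list's median was between -0.71 and -0.49 with 1 array left out. Genes of later granules and mature neutrophils had a median of 0.14, which was -0.0070 without shRNA1 replicate 1. Of 15 measured, 2 passed the threshold, both higher with shRNA1, beside 0.355% of all genes. One was Il1b, and the other Mmp8, neutrophil collagenase, at 12.10 and 12.42 with shRNA1, 10.51 and 10.55 with shRNA2 and 9.73 and 11.20 with empty vector (1.73 ± 0.15, limma adjusted p = 0.0363). Secondary granule genes of that list had no call, with Ltf at 0.30, Camp at -0.051, Ngp at -0.0068 and Lcn2 at -0.062.

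Stem and progenitor genes had no call by limma among 25 measured, with a median of -0.225. At an unadjusted p under 0.05, 6 were higher with shRNA2 and 2 with shRNA1, beside 5.64% and 6.9% of all genes. Cd34, a surface protein of progenitors, had 9.78 and 9.49 with shRNA1, 10.72 and 10.62 with shRNA2 and 9.53 and 9.09 with empty vector (-1.03 ± 0.14, limma adjusted p = 0.0721). Here shRNA1 lay near the control level and shRNA2 above it. Hoxa9, a homeobox gene of progenitors and myeloid leukaemia, had 9.17 and 9.22, 9.97 and 10.09, and 5.74 and 6.91 in the same order (-0.84 ± 0.12, limma adjusted p = 0.0721). Both hairpins stood well above the controls, and shRNA2 was the higher by less than 1 unit. Myb, a transcription factor of progenitors, differed by -1.07 and Meis1, a partner of HOXA9, by -0.76. Within the Hoxa cluster none of 9 passed by limma, and the median was -0.059. Hoxa9 and Hoxa5 were the 2 with an unadjusted p under 0.05, both higher with shRNA2 (5.64% of all genes in that direction). Hoxa5 differed by -0.68 ± 0.13 (limma adjusted p = 0.128). Without shRNA1 replicate 1 the medians of both lists turned sign, to 0.015 and 0.018. The remaining genes of smallest p in this direction were the phosphoinositide phosphatase Mtm1 (-1.03 ± 0.13), Nhsl1 (-0.99 ± 0.13), the heterochromatin protein Cbx5 (-0.84 ± 0.11), fatty acid synthase, Fasn (-0.91 ± 0.13), She (-0.94 ± 0.14) and Tex2 (-1.0 ± 0.15), with limma adjusted p from 0.0577 to 0.0825. Probe sets disagreed for Mtm1: of its other 2, one gave -0.65, and the other, at 8.94 and 8.86 with shRNA1 and 8.23 and 8.41 with shRNA2, went the opposite way at 0.58. The other 4 probe sets of Cbx5 gave -0.51 to -0.040, and the other one of Hoxa9 gave -0.60.

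Genes of cell division lay lower with shRNA1 as lists, with no single call. Of DNA replication genes all 33 measured had a difference below 0, and on 27 both shRNA1 arrays lay below both shRNA2 arrays (23.9% of all genes). An unadjusted p under 0.05 was reached by 19 (5.64% of all genes in that direction). The median was -0.52, and between same-numbered arrays it was -0.32 for replicates 1 and -0.68 for replicates 2. Thymidine kinase, Tk1, had 8.67 and 8.15 with shRNA1, 9.40 and 9.25 with shRNA2 and 7.48 and 6.71 with empty vector (-0.91 ± 0.20, limma adjusted p = 0.174). Cdc6, which loads the replicative helicase, differed by -0.70 ± 0.15 (0.176). Of mitosis genes 37 of 38 had a difference below 0, 33 did not overlap in that direction, 21 had an unadjusted p under 0.05, and the median was -0.46. The spindle checkpoint gene Mad2l1 had 9.39 and 9.13 with shRNA1 and 9.87 and 9.96 with shRNA2 (-0.65 ± 0.14, limma adjusted p = 0.168), and the kinase Plk1 differed by -0.65 ± 0.15 (0.189). For both lists the arrays of shRNA2 were the highest of the series by mean level.

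Growth genes showed the same direction, again with no call by limma. Of 31 Myc and ribosome assembly genes, 30 had a difference below 0, 25 did not overlap in that direction (23.9% of all genes), 18 had an unadjusted p under 0.05 (5.64% of all genes in that direction), and the median was -0.43. Srm, spermidine synthase, had 9.99 and 9.72 with shRNA1 and 10.75 and 10.61 with shRNA2 (-0.83 ± 0.14, limma adjusted p = 0.111), and Nop10, of the H/ACA small nucleolar RNPs, differed by -0.55 ± 0.11 (0.151). All 19 cholesterol synthesis genes had a difference below 0, 12 of them without overlap and 9 with an unadjusted p under 0.05, with a median of -0.32. Lss, which makes lanosterol, differed by -0.73 ± 0.13 (limma adjusted p = 0.113) and Fdps, which makes farnesyl diphosphate, by -0.67 ± 0.17 (0.216). With 1 array left out, the medians lay between -0.70 and -0.33 for replication, -0.67 and -0.28 for mitosis, -0.58 and -0.26 for Myc and ribosome assembly and -0.48 and -0.25 for cholesterol synthesis.

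Genes that respond to or handle small and foreign RNA were followed because hairpins are RNA. Of 11 genes of the small RNA machinery, such as Dicer1 and Ago2, no call was made by limma and the median was -0.094. In that list 1 member reached an unadjusted p under 0.05, beside 12.5% of all genes in either direction. Ran, the GTPase of nuclear transport, differed by -0.32 ± 0.12 (limma adjusted p = 0.381) and Prkra, a partner of Dicer, by 0.29 ± 0.11 (0.400). RNA sensors and their adaptors had 0 calls by limma among 17, with 6 higher with shRNA1 at an unadjusted p under 0.05 (6.9% of all genes), 11 without overlap upwards (17.7%) and a median of 0.37, which was 0.21 without shRNA1 replicate 2 and 0.24 with a gene's probe sets averaged. Tlr8 differed by 1.11 ± 0.17 (limma adjusted p = 0.0911) and Tlr7 by 0.86 ± 0.14 (0.0956), both receptors for single-stranded RNA in endosomes of myeloid cells. Tlr7 had 8.35 and 8.34 with shRNA1, 7.62 and 7.35 with shRNA2 and 5.90 and 8.33 with empty vector, so the hairpins did not overlap and the controls spanned a wider range than either. The list of interferon-stimulated genes had 0 calls by limma among 34. The called gene Ifi204, described above as interferon-inducible, is not in that list. At an unadjusted p under 0.05, 7 were higher with shRNA1 and 1 with shRNA2 (6.9% and 5.64% of all genes). Of the 34, 29 had a difference above 0. On 16 both shRNA1 arrays lay above both shRNA2 arrays and on 3 below (17.7% and 23.9% of all genes). The median was 0.24, and 0.15 without shRNA1 replicate 2. Oas1a, an antiviral synthetase, differed by 0.63 ± 0.15 (limma adjusted p = 0.203), while the GTPase Ifi47 differed by -0.67 ± 0.13 (0.131).

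Signalling lists held larger single differences without calls by limma. The median of 17 STAT5 targets was 0.30, but it turned to -0.018 without shRNA1 replicate 2 and to -0.090 without shRNA2 replicate 1, was 0.50 without shRNA1 replicate 1 and 0.57 without shRNA2 replicate 2, and was 0.085 with a gene's probe sets averaged. Among them Csn2, beta-casein, had 11.96 and 12.48 with shRNA1, 10.67 and 10.43 with shRNA2 and 6.66 and 6.13 with empty vector (1.67 ± 0.21, limma adjusted p = 0.0577). Both hairpins were far above control and shRNA1 was the higher. Igf1, a growth factor made by macrophages, differed by 2.39 ± 0.33 (limma adjusted p = 0.0697). Among 35 cytokine receptor and signalling genes (median 0.15), Il6st, the shared gp130 chain, differed by 1.99 ± 0.37 (limma adjusted p = 0.126) and Il5ra by -0.77 ± 0.12 (0.0955). The other, dimmer probe sets of Il6st gave 0.15 and 0.88. In the cadherin and junction list (20 measured, median 0.11), Cdh1, E-cadherin, had 8.56 and 9.73 with shRNA1, 5.28 and 6.73 with shRNA2 and 11.40 and 11.47 with empty vector. The groups did not overlap, but the arrays of each hairpin lay over 1 unit apart (3.14 ± 0.58, limma adjusted p = 0.125). F11r, a junction adhesion molecule, differed by 0.88 ± 0.14 (0.0911), while its other, dimmer probe set gave -0.14. Immediate early and heat shock genes (25, median 0.23) were led by Egr2 and Zfp36, an mRNA decay factor (0.86 ± 0.18, limma adjusted p = 0.154).

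Other blood lineages gave 1 call. Fcer1a, the alpha chain of the IgE receptor, had 11.28 and 11.34 with shRNA1, 9.93 and 9.96 with shRNA2 and 12.21 and 13.13 with empty vector (1.36 ± 0.11, limma adjusted p = 0.0363). It was the 1 of 22 mast cell and basophil genes to pass, beside 0.355% of all genes. Cpa3, a defining protease of mast cells, differed by -0.39, and the list median of -0.14 also turned sign in 2 of 15 alternatives. No member of the megakaryocyte (16, median 0.14), erythroid (26, 0.12), B cell (16, -0.00013), T and NK cell (15, -0.011), eosinophil (7, -0.13) or stromal and endothelial (21, -0.012) lists passed by limma. At an unadjusted p under 0.05 they had 3, 1, 4, 1, 2 and 3 members in either direction, where 12.5% of all genes reached that level, a share that the erythroid, T and NK cell counts did not reach. Each of these 6 medians turned sign in at least 1 of 15 alternative settings. Thbs1, thrombospondin, differed by 1.92 ± 0.39, Selp, P-selectin, by 1.38 ± 0.23, Ermap by 0.66 ± 0.15 and Car2 by 0.23 ± 0.12. Il7r, the interleukin 7 receptor, differed by 1.45 ± 0.36 and Blnk, an adaptor shared by B cells and macrophages, by 0.62 ± 0.14. Nkg7 (-0.71 ± 0.20), Gzmb (0.33 ± 0.20), Prg3 (0.61 ± 0.22), Pdgfrb (-1.50 ± 0.29) and Tek (-0.93 ± 0.14) completed the named members, with limma adjusted p for these lists between 0.0848 and 0.595. The other, dimmer probe set of Pdgfrb gave -0.27.

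Lists of general cell functions held no call by limma. Of 25 Polycomb group genes 3 had an unadjusted p under 0.05 in either direction, beside 12.5% of all genes, and the median was -0.12, with Ezh2, the methyltransferase, at -0.62 ± 0.19 and Cbx6 at -0.48 ± 0.13. Among 27 p53 targets (5 at an unadjusted p under 0.05, median 0.093), Fas differed by 0.64 ± 0.12 and Gtse1 by -0.42 ± 0.14. Among 21 cyclins, kinases and inhibitors of G1 (3, -0.092), Cdk4 differed by -0.55 ± 0.12 and the inhibitor Cdkn2b by 0.87 ± 0.20. The integrated stress response (33 genes, 9 at that level, median -0.029) held Cebpb and Shmt2, a mitochondrial folate enzyme at -0.93 ± 0.16. Hypoxia and glycolysis genes (29, 7, 0.053) held Egln3 at 0.59 ± 0.17 and Pfkl at -0.58 ± 0.13. Respiratory chain genes (42, median -0.076) had 0 at an unadjusted p under 0.05, but 34 had a difference below 0 and on 19 both shRNA1 arrays lay below both shRNA2 arrays, against 3 the other way (23.9% and 17.7% of all genes), with Atp5o at -0.24 ± 0.12 and Ndufa4 at -0.26 ± 0.12. Histone genes (6 of 21 measured, 2, -0.14) held H2ax at -0.72 ± 0.17 and H2az2 at -0.39 ± 0.13. Sex-linked genes (4, median -0.022) had 0 at that level, with Kdm5d at 0.069 ± 0.13 and Eif2s3y at -0.053 ± 0.12. The medians of the G1, stress response, histone and sex-linked lists turned sign in 1, 2, 1 and 1 alternative settings. Limma adjusted p-values of these named genes lay between 0.0647 and 0.934.

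**Figure D4:**
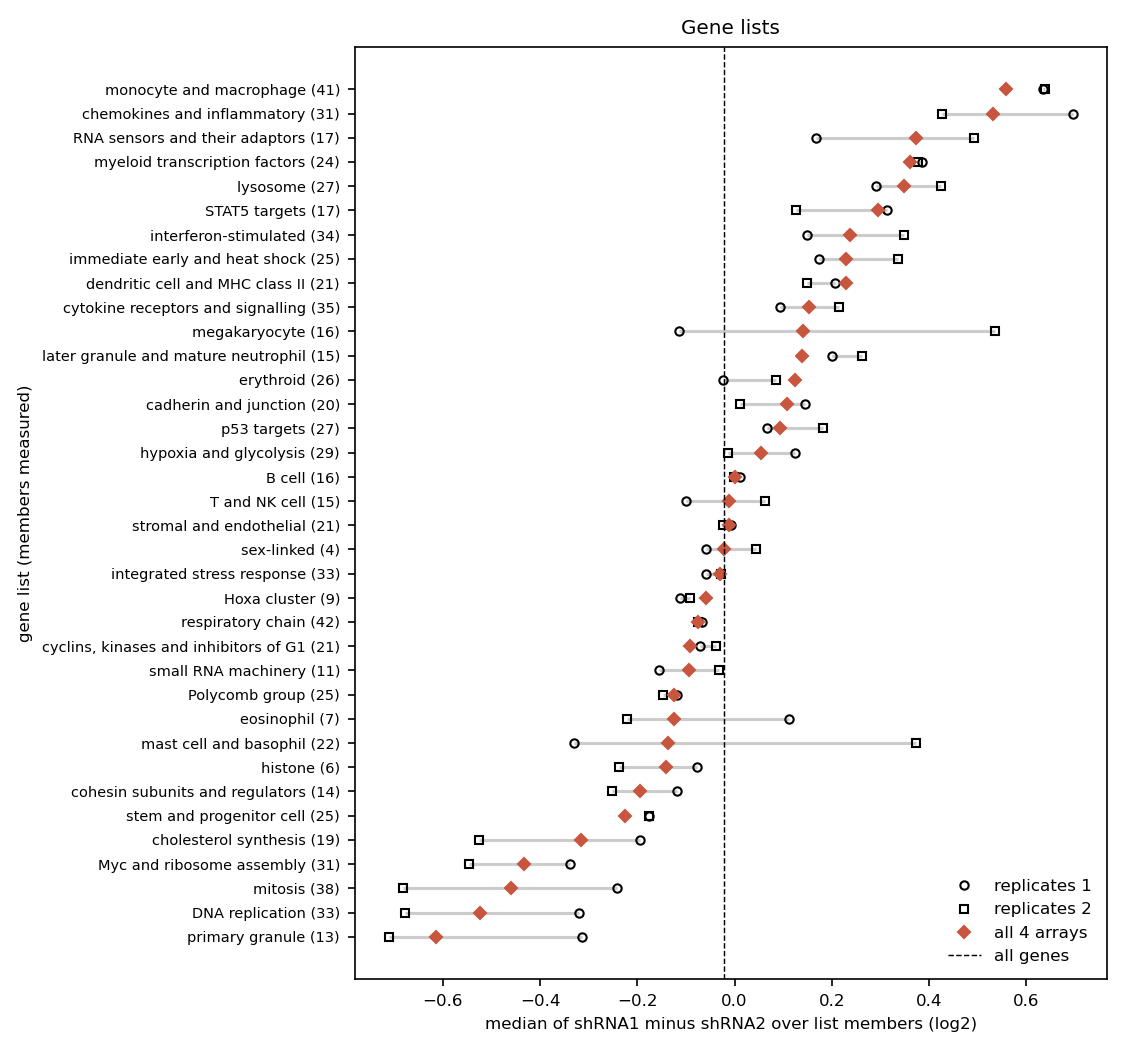
Median difference between the hairpins (shRNA1 minus shRNA2, log2, x axis) over the measured members of each of 36 gene lists (y axis, number measured in brackets): diamonds use all 4 arrays, circles only the replicates numbered 1 and squares only those numbered 2, and the dashed line is the median of all genes. Monocyte and macrophage genes lie furthest right at 0.56 and primary granule genes furthest left at -0.61.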

How the data were processed

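RNA from 6 samples was measured on 1-colour Affymetrix GeneChip arrays, 2 per group. The deposited values are linear intensities per probe set that the authors made by RMA, per the submitters' processing notes; the software and version behind it were not given in the sources used here. Of 22690 probe sets, 20393 carried 1 gene, 691 several and 1606 none. After control probe sets were left out, 20380 remained, and the one with the highest mean over the 6 arrays stood for each of 12393 genes. Intensities were converted to log2 with no pseudocount and no filter, and the 4 shRNA arrays were fitted in limma 3.58.1 (R 4.3.3; lmFit, eBayes, two-sided, Benjamini-Hochberg over all genes, threshold 0.05), which left 2 residual degrees of freedom. The fit was tested on simulated data.

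Named were Rad21, the 12 largest differences past the threshold whose 2 and 2 arrays did not overlap, the 8 of smallest p in a direction with no call, genes called on all probe sets, and up to 4 called members of each of 36 lists or, with none, the 2 of smallest p. Other genes were named after their values were seen. The comparison and lists were chosen with earlier results of these data known. Promoters and coordinates are from RefSeq (GRCm38.p6). Alternatives covered the arrays fitted, replicate block, dim genes, probe sets, normalization, an added 16, eBayes options and each array left out. Motifs planned for 6 lists were not searched in them, because none of those lists had 3 members past the threshold.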

Additional observations from a re-analysis of the deposited data

How the results depend on the processing

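Rad21 did not pass the threshold under any alternative run, and its difference of 0.077 ranged from -0.168 to 0.323 with 1 array left out, at -0.168 without shRNA1 replicate 1 and -0.119 without shRNA2 replicate 2. The 44 genes past the threshold (12 named by size, 12 in lists) became 0, 0 and 0 with all 6 arrays in 1 limma fit and likewise 0, 0 and 0 once the dimmer 50% were dropped. They became 3, 3 and 0 with the dimmest 25% left out, and 1, 1 and 0 both after quantile normalization and with 16 added before the logarithm. Averaging a gene's probe sets gave 29 genes, 28 of them among the 44, all higher with shRNA1, and centring on medians gave 33. With an intensity trend limma called 126 genes, 118 higher with shRNA1 and 8 with shRNA2, 37 of them in lists, and with robust eBayes 72, 71 and 1 in the 2 directions; all 44 were among them in both. Leaving out 1 array gave 0 to 54 genes, 0 to 50 higher with shRNA1, 0 to 4 with shRNA2, 0 to 12 of those named by size and 0 to 19 in lists. With shRNA1 replicate 2 left out no gene was called. The lone array of a group was then assumed to vary like the other group. The cause of these changes was not tested.

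With replicate number as a block, 999 genes passed, 665 higher with shRNA1 and 334 with shRNA2, 180 of them in lists, all 44 included; with the block and all 6 arrays, 0 passed. The labels do not say that a number marks a shared culture or day. Deviations from the group means correlated at 0.578 across genes between same-numbered arrays, and the added poly-A control RNAs averaged 8.58 and 8.31 log2 on the replicates numbered 1 and 7.33 and 7.11 on those numbered 2.

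Kdm5d (0.069) had -0.0040 when probe sets were averaged and -0.027 to 0.16 with 1 array left out, and Eif2s3y (-0.053) had -0.11 to 0.0027; the sign turned without shRNA2 replicate 1 and without shRNA1 replicate 2, respectively. With 2 arrays a group, differences the size of the replicate spread could not be resolved.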
